A study of Mus musculus with 8 samples.

Results

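The microtubule tracks of mouse sensory neurons and the motors that run on them were described here through 98 genes of 22609 in the count files. They were chosen by symbol alone: all kinesin heavy chains (Kif), kinesin light chains (Klc), cytoplasmic dynein chains (Dync, Dynll, Dynlrb, Dynlt), dynactin subunits (Dctn), alpha-, beta- and gamma-tubulins (Tuba, Tubb, Tubg) and microtubule-associated proteins under their older Mtap symbols. The symbol rule uses no measured value, though it was set with earlier results of these data known. Neurons of the dorsal root ganglia (DRG) innervating hindpaw skin and thigh muscle were back-labelled by injecting WGA-488, a fluorescent lectin carried along axons to the cell body, into paw and thigh. Labelled cells were sorted, and RNA-seq libraries were made by SMART-seq2, 4 from females and 4 from males. All mice were C57BL/6J, naive apart from the tracer, and the females were in estrous phase. The design compares females with males. Each p-value weighs the sex difference against the spread among the 4 libraries of each sex, with spread estimates shared across genes. Per the study's methods each sample held the L3-L5 ganglia of both sides.

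Microtubules are hollow polymers of alpha- and beta-tubulin pairs, nucleated from gamma-tubulin and steadied by microtubule-associated proteins (MAPs). In an axon they lie with their growing ends towards the periphery, so that kinesins carry vesicles, mitochondria and neurofilament subunits outwards, while cytoplasmic dynein with its cofactor dynactin carries signalling endosomes and worn organelles back to the cell body. Sensory neurons have some of the longest axons in the body, and the labelling used here itself depends on such inward transport of the tracer.

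The files held 4800071 to 7329597 gene-assigned reads per library, and values are given as CPM (gene reads scaled to a common library total) or, where genes are compared with each other, as CPM per kilobase of exon (RPKM). Pan-neuronal markers summed to 22840 to 32676 CPM in females and 22974 to 26092 CPM in males, and 0 of 15 of them differed by sex at an unadjusted p under 0.05. Markers of satellite glia and Schwann cells, which a sort of neurons would be meant to leave out, were present and summed to 11614 to 14980 CPM in females against 5451 to 11215 CPM in males. Most of each sum was Apoe, at 8054 to 10873 CPM in females and 3068 to 7796 CPM in males. The median log2 fold change (female over male) of the tested markers was 0.43, while Pmp22 stood at -0.10. Of the 14 glial markers tested, 6 were higher in females at an unadjusted p under 0.05, where 4.44% of all tested genes were. None of the 15 was at 0 in all libraries. Fibroblast markers summed to 143 to 196 CPM in females and 55.7 to 116 CPM in males, and 5 of the 7 tested of 10 listed were higher in females at this p. Macrophage and MHC class II markers summed to 15.1 to 37.7 and 5.46 to 11.7 CPM. The 4 tested of 10 listed were higher in females at this p, Lyz2 mostly through female replicate 4. The filter keeps a gene with enough reads in 4 libraries, as many as each sex holds. Genes this low can thus pass it through females alone, which limits what this count shows. None of these markers passed adjustment. Markers of large myelinated neurons summed to 1328 to 2624 CPM in females and 708 to 1418 CPM in males, with Nefh, Ntrk3 and Kcnc1 higher in females at an unadjusted p under 0.05. Those of small neurons summed to 7047 to 8670 and 8281 to 11192 CPM, with Calca and Tac1 higher in males. Female replicate 4 stood apart from the other 7 libraries by gene length, which touches many of the genes below and widens their SD.

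The 98 genes together took 4.13% ± 0.0833 (SD, n = 8) of all gene reads, with a range of 3.99 to 4.25%. MAPs held the largest part at 1.22% ± 0.0969 of gene reads, followed by the beta-tubulins at 1.14% ± 0.126 and the alpha-tubulins at 0.391% ± 0.0438. Dynactin and the kinesin light chains each took 0.253%, the kinesin-1 heavy chains 0.218% and the core chains of cytoplasmic dynein 1 took 0.190%. Reads were found for 78 genes in all 8 libraries, for 13 in some of them and for 7 in none.

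**Figure D1:**
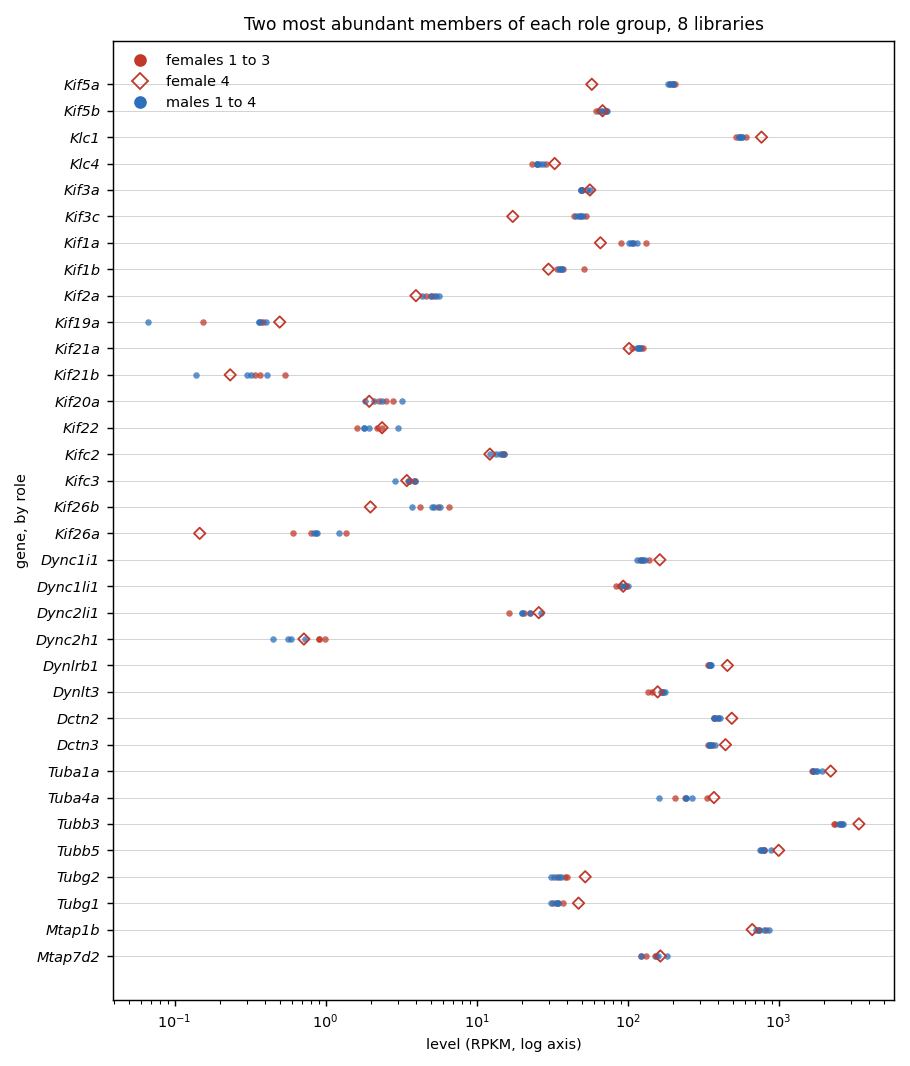
Level of the 2 most abundant genes of each role group, as CPM per kilobase of exon (RPKM, log axis). Filled points are females 1 to 3 (red) and males 1 to 4 (blue), and the open diamond is female replicate 4, which lies left of the other libraries for Kif5a, Kif3c and Kif26a and right of them for Tubb3, Tuba1a and Klc1.

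Tubb3, the neuron-enriched beta-tubulin, had the highest level per length of all members, 2636 ± 334 RPKM (SD, n = 8). Its CPM was 4448, 4320, 4903 and 6359 in females 1 to 4 and 4704, 4803, 4986 and 4866 in males 1 to 4. Female replicate 4 was the highest library, and the other females overlapped the males. Tubb5, a broadly expressed isotype, followed among the beta-tubulins at 824 ± 83.9 RPKM, then Tubb4 at 711 ± 93.8, Tubb2a at 660 ± 59.5, Tubb2c at 349 ± 46.4 and Tubb2b at 136 ± 21.7 RPKM. Tubb4 and Tubb2a differed by less than their spread over libraries. Tubb6 stood at 9.98 ± 1.79 RPKM. Tubb1, the platelet isotype, reached at most 0.682 CPM, close to the 0.409 to 0.625 CPM that 3 reads make in a library, and was at 0 reads in 3 libraries.

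The isotypes differ most at their acidic carboxyl tails, where modifying enzymes and motors meet the filament, and share most of the body. To show where the isotypes part and where they share sequence, the last 60 coding bases, stop codon included, are given from genome build NCBIM37 (mm9), 5′ to 3′ on the coding strand. Capitals mark bases that lie in no run of 12 or more bases also present in another of the ends shown. They come from chr13:34166337-34166396 (Tubb2a), chr13:34219340-34219399 (Tubb2b), chr2:25077828-25077887 (Tubb2c), chr8:125945523-125945582 (Tubb3), chr17:57220113-57220172 (Tubb4) and chr17:35971927-35971986 (Tubb5), on the minus strand except Tubb3, which is on the plus strand.
Tubb2a: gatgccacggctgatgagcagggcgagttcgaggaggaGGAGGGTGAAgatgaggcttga
Tubb2b: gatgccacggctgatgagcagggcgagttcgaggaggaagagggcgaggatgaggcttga
Tubb2c: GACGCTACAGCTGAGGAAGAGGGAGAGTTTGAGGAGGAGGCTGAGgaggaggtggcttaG
Tubb3: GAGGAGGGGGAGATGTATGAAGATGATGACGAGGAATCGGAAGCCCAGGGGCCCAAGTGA
Tubb4: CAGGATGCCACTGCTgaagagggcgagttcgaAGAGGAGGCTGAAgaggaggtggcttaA
Tubb5: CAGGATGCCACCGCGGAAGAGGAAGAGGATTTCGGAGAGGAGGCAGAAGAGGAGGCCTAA
The ends of Tubb3 and Tubb5 are in capitals throughout, whereas Tubb2a has 10 capitals and Tubb2b has 0. The marking compares short runs only and does not say whether a longer read could be placed.

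Among the alpha-tubulins Tuba1a, the main isotype of differentiating and regenerating neurons, stood at 1808 ± 189 RPKM. Its CPM was 2749, 2800, 2774 and 3644 in females 1 to 4 and 3220, 2894, 2774 and 2967 in males 1 to 4, so that only female replicate 4 lay above the males. Tuba4a, which lacks the terminal tyrosine that other isotypes carry, was at 259 ± 68.1 RPKM, and its range of 425 to 766 CPM in females and 331 to 551 CPM in males was wide. Of its exon bases, 30.8% are shared with Stk16 on the opposite strand. The strand setting of the counting is not stated, so how reads in the shared bases were assigned is not known. Tuba1b, the ubiquitous isotype, was counted at 207 ± 32.4 RPKM. Tuba1c and Tuba8 were counted at 3.44 ± 1.04 and 1.51 ± 1.08 RPKM. Tuba3a had reads in 1 library only and Tuba3b in none.

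For these genes the count depends on how many reads can be placed. Reads were 50 bases long, and the counting kept reads with 1 place in the genome. Of the 50-base windows inside exons of Tuba1a, 388 of 1451 occur once in the build, against 242 of 1728 for Tuba1b and 1485 of 1672 for Tubb3. The windows below, taken at the same offset in the last coding exon, show this for the alpha-tubulins, and capitals mark bases that differ from Tuba1a. They lie at chr15:98781376-98781425 (Tuba1a, minus strand), chr15:98762924-98762973 (Tuba1b, minus strand), chr15:98867486-98867535 (Tuba1c, plus strand) and chr1:75213099-75213148 (Tuba4a, minus strand) in NCBIM37.
Tuba1a: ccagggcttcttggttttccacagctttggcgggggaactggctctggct
Tuba1b: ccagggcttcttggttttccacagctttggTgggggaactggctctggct
Tuba1c: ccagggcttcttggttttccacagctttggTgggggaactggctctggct
Tuba4a: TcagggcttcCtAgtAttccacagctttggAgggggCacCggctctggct
The Tuba1a window has 6 exact matches in the genome and those of Tuba1b and Tuba1c have 2 each, while the Tuba4a window has 1. When each RPKM was divided by the share of unique windows, a step chosen after the data were seen and which assumes reads spread evenly over exons, Tuba1a came to 6762 ± 706 and passed Tubb3 at 2968 ± 376. Tuba1b then rose from position 13 to position 4 among the members, at 1479 ± 232. The order of the tubulin isotypes thus differed between the scales.

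**Figure D2:**
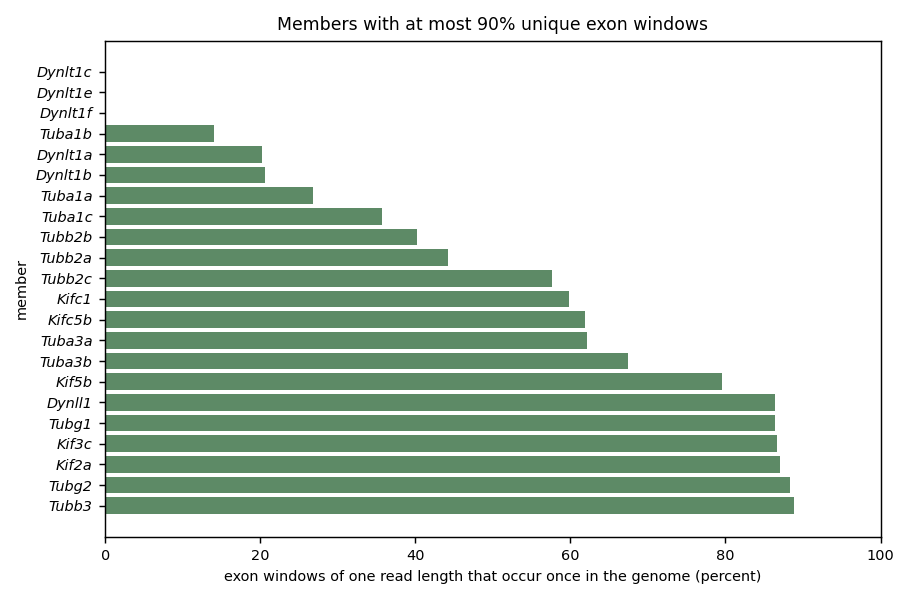
Share of exon windows of 1 read length (50 bases) that occur once in the mouse genome, for the 22 genes at or under 90%. Bars start at 0, and Dynlt1c, Dynlt1e and Dynlt1f have no unique window.

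Of the 97 genes with annotated exons, 75 had more than 90% unique windows, 12 had 50 to 90% and 10 had fewer. The last are Tuba1a, Tuba1b, Tuba1c, Tubb2a, Tubb2b and the 5 Dynlt1 copies. Tubb2a-ps2, a pseudogene of Tubb2a with no entry in the annotation used, received 124 to 173 CPM, and its reads may belong to either copy. Exon bases shared with a gene on the opposite strand passed 10% in 10 genes, among them Kif2a (17.4%), Kif3c (17.1%), Tuba8 (16.5%), Dctn6 (11.8%) and Kif26b (11.6%), beside Tuba4a above and Kif20a and Klc3 below.

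Among the MAPs Mtap1b, which keeps growing axons supple and marks the peripheral nervous system through adult life, led with 760 ± 63.7 RPKM. By CPM it was the most abundant of the 98 genes, at 8978, 8906, 9959 and 8076 in females 1 to 4 and 8548, 9665, 10384 and 8855 in males 1 to 4. The ranges of the sexes overlapped. Its relative Mtap1a, the form of mature neurons, reached 56.0 ± 5.67 RPKM, and Mtap1s reached 50.03 ± 3.55. Mtap7d2, a relative of the kinesin-1 cofactor Mtap7, was second at 149 ± 21.5 RPKM, while Mtap7 itself was at 14.8 ± 4.40. Mtap4, Mtap6 and Mtap7d1 lay close together at 61.4 ± 11.7, 58.0 ± 7.23 and 61.4 ± 9.94 RPKM. Mtap2, the classical dendritic MAP, had 2.04 ± 0.427 RPKM and its CPM ranged from 20.7 to 40.8 over all 8 libraries. Sensory neurons carry no dendrites in the usual sense. Mtap7d3 stayed at or under 0.687 CPM.

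Kinesin-1, the motor of vesicles, mitochondria and slowly moving cytoskeletal proteins, has heavy chains Kif5a, Kif5b and Kif5c. Kif5a, confined mostly to neurons, was the most abundant kinesin heavy chain at 179 ± 49.4 RPKM. Its CPM was 1391, 1347 and 1282 in females 1 to 3, 390 in female replicate 4, and 1349, 1282, 1245 and 1336 in males 1 to 4. All libraries but female replicate 4 lay within a narrow band. Kif5b, the ubiquitous form, stood at 68.6 ± 4.01 RPKM and Kif5c at 65.2 ± 12.4 RPKM, values that differed by less than their spread. The light chains that couple kinesin-1 to cargo were dominated by Klc1, at 587 ± 78.6 RPKM, against 26.8 ± 2.98 for Klc4, 17.0 ± 5.30 for Klc2 and 3.10 ± 0.576 for Klc3. Klc1 had 2115, 2261, 2479 and 3139 CPM in females and 2240, 2226, 2345 and 2324 CPM in males.

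Kif1a, the kinesin-3 that moves synaptic and dense-core vesicle precursors, was at 104 ± 19.4 RPKM, and Kif1b at 37.2 ± 6.32 RPKM. The other kinesin-3 genes were far lower, from 3.28 RPKM for Kif16b down to 0.00408 RPKM for Kif14. Kif21a, a kinesin-4, reached 116 ± 7.93 RPKM, and its relative Kif21b 0.332 ± 0.119 RPKM. In kinesin-2, which serves axons and cilia, Kif3a stood at 51.6 ± 3.22 and Kif3c at 44.6 ± 11.4 RPKM, values within their spread, Kif3b at 14.3 ± 3.73 and Kif17 at 0.808 ± 0.158 RPKM. Kif2a, which trims microtubule ends in neurons, was at 4.91 ± 0.556 RPKM.

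Kinesins of the mitotic spindle and of cytokinesis were low: their 8 genes, of which 3 had enough reads to be tested, summed to 17.5 to 22.3 CPM in females and 17.5 to 22.9 CPM in males. Kif20a made up the largest share of this with 7.10 to 12.4 CPM, but 32.3% of its exon bases overlap Cdc23 on the opposite strand. Kif22 had 3.33 to 6.27 CPM, Kif11 1.01 to 3.30 CPM, and none of Kif15, Kif20b, Kifc1 and Kifc5b passed 2.02 CPM. The list of proliferating-cell markers was low as well, at 17.7 to 32.7 CPM in females and 25.0 to 29.3 CPM in males. Kif12, Kif2b, Kif4b and Tuba3b had 0 reads in all libraries, which allows up to 0.409 to 0.625 CPM per library by counting error alone.

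Of cytoplasmic dynein 1, the heavy chain Dync1h1 that holds the motor domain was at 30.6 ± 5.78 RPKM, the neuron-enriched intermediate chain Dync1i1 at 131 ± 15.1, and Dync1i2, the ubiquitous form, at 48.0 ± 5.22 RPKM. The light intermediate chains that bind cargo adaptors, Dync1li1 and Dync1li2, stood at 93.6 ± 5.19 and 83.6 ± 21.8 RPKM. Light chains were led by Dynlrb1 at 363 ± 38.8 RPKM, followed by Dynlt3 at 162 ± 14.5, Dynll1 at 98.1 ± 10.8 and Dynll2 at 31.0 ± 5.28 RPKM. Dynactin, which links dynein to cargo and makes it processive, was led by Dctn2 (the dynamitin subunit, 399 ± 38.9 RPKM) and Dctn3 (368 ± 33.2 RPKM), and its large p150 subunit Dctn1 stood at 121 ± 19.5 RPKM. Dynein 2 of cilia was low, with Dync2li1 at 21.9 ± 3.35 and its heavy chain Dync2h1 at 0.732 ± 0.191 RPKM.

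The Tctex1 light chain genes Dynlt1a to Dynlt1f lie in near-identical copies on chromosome 17. Dynlt1c, Dynlt1e and Dynlt1f had 0 reads and also no unique window, so that their count says nothing of expression. A window of Dynlt1c at chr17:6649163-6649212 (NCBIM37, minus strand), which has 7 exact matches in the genome, shows why a 50-base read could not be placed.
Dynlt1c: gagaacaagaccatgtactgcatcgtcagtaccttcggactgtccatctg
Dynlt1a and Dynlt1b, with 20.2% and 20.6% unique windows, were counted at no more than 0.825 and 0.168 CPM. Against these, Dynlt3 on chromosome X has only unique windows.

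Few of these genes differed between the sexes. Of the 69 genes with enough reads to be tested, 5 (7.25%) had an unadjusted p under 0.05 in edgeR's quasi-likelihood test, against 7.11% of all 12518 genes tested. Dync2h1 and Klc2 were higher in females (4.44% of all tested genes were higher in females at this p) and Tuba1c, Mtap9 and Dynlt3 in males (2.67%). After Benjamini-Hochberg adjustment over all genes tested by edgeR, 0 of 69 passed 0.05, where 0.0879% of all tested genes did, and the smallest adjusted p was 0.637. DESeq2 and limma-voom likewise gave 0 adjusted calls, with 5 and 4 genes at an unadjusted p under 0.05. The shares of the set and of all genes were near each other and the count is no result about the set.

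For most genes the interval around the sex difference was narrow. The median log2 fold change, female over male, was -0.06 over the 69 genes and 0.00 over all tested genes, with a median standard error of 0.15. The 95% interval lay within a 2-fold change either way for 64 of the 69 genes, and within 1.5-fold for 48. Fitted log2 fold changes ranged from -0.66 for Tuba1c to 1.08 for Tuba8, whose interval from -0.23 to 2.38 was the widest. The Tuba8 value ran from 0.24 with the glial score as a term to 1.96 without male replicate 2 over the 18 alternative fits, and its unadjusted p was under 0.05 in 2 of them, without male replicate 2 and without female replicate 2. Tubb3 differed by 0.03 (interval -0.25 to 0.30), Tuba1a by -0.01 (-0.26 to 0.24), Mtap1b by -0.08 (-0.32 to 0.16), Klc1 by 0.11 (-0.16 to 0.38) and Dync1i1 by 0.13 (-0.13 to 0.38).

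**Figure D3:**
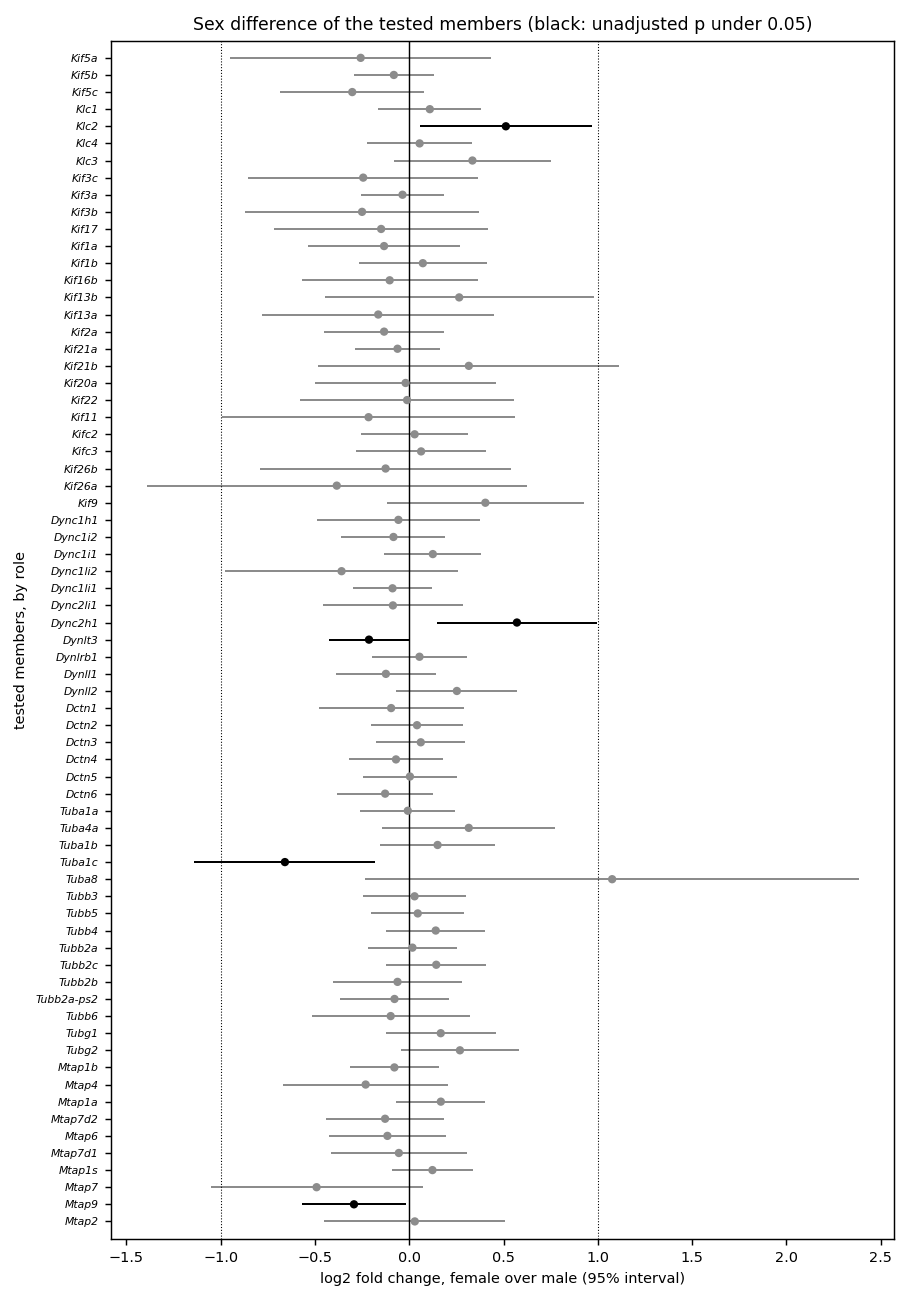
Log2 fold change, female over male, with its 95% interval from edgeR for the 69 tested genes in order of role. Black marks the 5 genes with an unadjusted p under 0.05 (Klc2, Dync2h1, Dynlt3, Tuba1c and Mtap9), none of which passed after adjustment, and dotted lines mark a 2-fold change.

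Tuba1c had 6.32, 5.03, 4.79 and 5.05 CPM in females 1 to 4 and 10.2, 6.83, 6.60 and 9.47 CPM in males 1 to 4. Every male lay above every female. The log2 fold change was -0.66 ± 0.22 (SE), with an unadjusted p of 0.0117 and an adjusted p of 0.637 by edgeR. Its p was under 0.05 in 17 of 18 alternative fits and 0.379 in the fit that had the glial score (mean log2 level of those markers) among its terms, where the difference came to -0.25 on the log2 scale. The score ran from 7.04 to 7.28 in females and from 6.17 to 6.98 in males. It did not overlap between the sexes, so this fit can hardly part it from sex. The part of the glial markers in the difference was not tested beyond this fit. Only 35.7% of its windows are unique, and its level is a small fraction of that of Tuba1a next to it on chromosome 15.

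Dync2h1, the motor of retrograde transport within cilia, had 16.1, 14.6, 14.6 and 11.6 CPM in females and 9.55, 11.9, 9.08 and 7.25 CPM in males. The groups overlapped by 1 library each, female replicate 4 and male replicate 2. The log2 fold change was 0.57 ± 0.19 (SE), the unadjusted p 0.0133 and the adjusted p 0.637 by edgeR. The p remained under 0.05 in 17 of 18 alternative fits, with a range of 0.00250 to 0.0734. The fit that took it above 0.05 was the one with the glial score, where the log2 fold change was 0.59. That score was higher in every female than in every male, so this fit can hardly part it from sex. The part of the glial markers in the difference was not tested further. Its dynein 2 partner Dync2li1 had a log2 fold change of -0.09 (95% interval -0.46 to 0.28).

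Klc2 had 115, 82.9, 83.5 and 51.0 CPM in females and 55.8, 57.8, 54.0 and 62.4 CPM in males. Females 1 to 3 lay above all males, and female replicate 4 below them. The log2 fold change was 0.51 ± 0.21 (SE), with an unadjusted p of 0.0305 and an adjusted p of 0.661 by edgeR. Without female replicate 4 it was 0.69, with an unadjusted p of 0.000129 and an adjusted p of 0.0855. Its p was under 0.05 in 8 of 18 alternative fits and above it with the glial score as a term. Over the 18 fits its log2 fold change ran from 0.32 to 0.69. Leaving out another library instead took the p above 0.05 for each of the other females and for males 1 to 3. Klc3, the lowest of the light chains, had 9.10 ± 1.47 CPM in females and 7.14 ± 0.780 CPM in males, with an unadjusted p of 0.103. Its exons share 28.4% of their bases with Ercc2 on the opposite strand.

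Mtap9, a spindle and cilium MAP also known as Asap, had 59.5, 51.9, 45.6 and 59.6 CPM in females and 64.9, 59.4, 65.4 and 72.2 CPM in males. Male replicate 2 lay among the females. The fitted difference was -0.29 ± 0.12 (SE) on the log2 scale and the unadjusted p 0.0382. The p was under 0.05 in 8 of 18 alternative fits, but not with the glial score. Over the 18 fits the difference ran from -0.34 to -0.07. With a correction for exon length it became -0.17, with a p of 0.343, and with exon length and GC content together -0.07, with a p of 0.725.

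Dynlt3 had 427, 372, 353 and 408 CPM in females and 437, 446, 444 and 456 CPM in males. The groups did not overlap, and the log2 fold change was -0.21 ± 0.09 (SE), with an unadjusted p of 0.0469 and an adjusted p of 0.696 by edgeR. Only 6 of 18 alternative fits, the one with the glial score not among them, kept the p under 0.05. Over the 18 fits the log2 fold change ran from -0.26 to -0.04. A correction for exon length and GC content together brought it to -0.04 with a p of 0.583. The other light chains Dynlrb1, Dynll1 and Dynll2 had intervals that included 0.

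In 4 of the 69 genes (5.80%) the CPM of the sexes did not overlap, against 5.52% of all tested genes. Besides Tuba1c and Dynlt3 these were Dync1li2, also higher in males, and Kif9, a kinesin of motile cilia, higher in females. Kif9 had 3.71, 5.38, 4.37 and 3.54 CPM in females and 3.27, 3.27, 2.81 and 3.25 CPM in males, and the fitted difference of 0.40 ± 0.24 (SE, log2) had an unadjusted p of 0.116. For Dync1li2 the females had 404, 397, 424 and 141 CPM and the males 445, 427, 432 and 428 CPM, so that the size of the difference rested on female replicate 4 and the log2 fold change of -0.36 ± 0.28 (SE) had an unadjusted p of 0.226.

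The main difference between libraries within this set was not one of sex. Female replicate 4 was the lowest of the 8 libraries in 26 of the 69 tested genes (32.8% of all tested genes) and the highest in 19 (29.1%). Long genes were low in it and short genes high. Of the 36 members with exons longer than the median of tested genes, 3832.5 bases, it was lowest in 25 (69.4%, against 52.5% of all long genes), and of the 32 shorter members highest in 18 (56.2%, against 45.3%). Across the 68 members with an exon length, the deviation of this library from the other females had a Spearman correlation of -0.75 with length, and across 12388 tested genes -0.55. These are correlations across genes of 1 library, which share its depth and preparation. Over the members, the 4 males, each set against the other males, gave -0.17 to 0.12. Females 1 to 3 gave 0.54, 0.65 and 0.25, with female replicate 4 among the libraries each was set against.

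**Figure D4:**
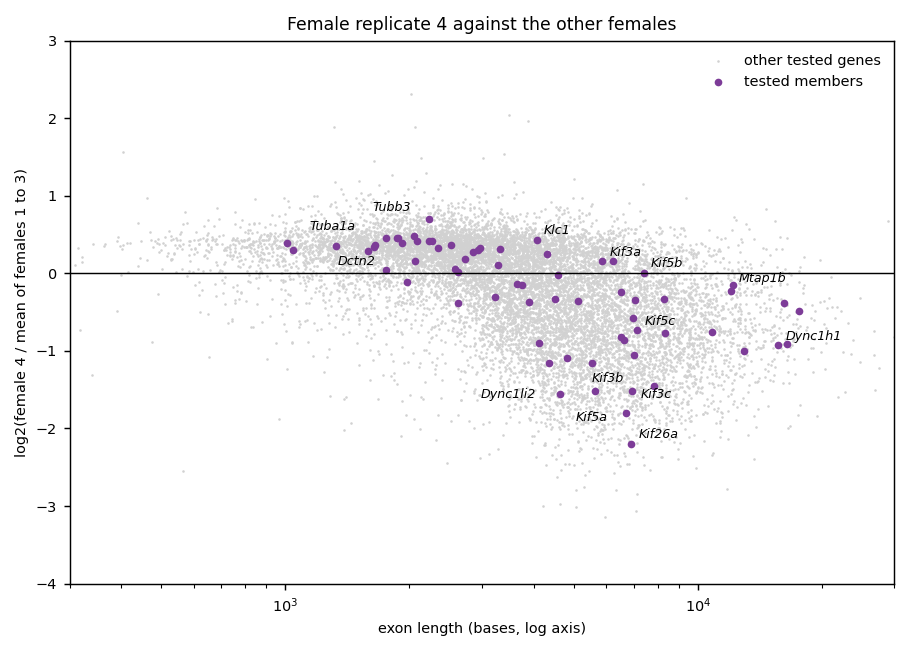
Log2 ratio of TMM-scaled CPM (0.5 added to each), female replicate 4 to the mean of females 1 to 3, against exon length (bases, log axis). Purple points are the tested members with an annotated length and grey points the other tested genes, of which 7 lie outside the axes. The short genes Tubb3 and Tuba1a lie above 0 and most long kinesin genes below it, while the long members Kif3a, Kif5b, Klc1, Mtap9 and Mtap7d2 lie at or above 0.

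Length alone did not order the motors. The kinesin-1 heavy chains have exons of 6719 (Kif5a), 7395 (Kif5b) and 7142 bases (Kif5c), yet female replicate 4 stood at 0.291, 1.02 and 0.611 of the mean of the other females. Only 2.25% of all tested genes were as low in this library as Kif5a. The kinesin-2 partners parted in the same way. Kif3a had 289, 291 and 294 CPM in females 1 to 3 and 331 in female replicate 4. Kif3b had 31.2 CPM in this library against 79.8 to 99.1 in the other females, and Kif3c 120 CPM against 305 to 369. The exons of the low ones were richer in G and C, at 53.0% for Kif5a, 51.7% for Kif3c, 49.1% for Kif3b and 47.7% for Kif5c, than those of Kif5b at 41.1% and Kif3a at 44.6%. Not every long member followed this: Kif11, at 42.2%, was low in this library, and Klc1, at 55.6%, was high. Over the 36 long members, the deviation of this library had a weak Spearman correlation of -0.32 with GC content. Over all 68 members it was 0.17 and over all tested genes 0.29, of the opposite sign, and the part of base composition was not tested.

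Compared with the mean of the other females, 10 of the 69 members were more than 2-fold lower in this library (14.5%, against 14.5% of all tested genes), all of them among the long members (27.8%, against 25.4% of long genes). The lowest was Kif26a, a kinesin without motor activity, at 1.01 CPM against 4.17 to 9.35 CPM. Besides Kif5a, Kif3b and Kif3c the others were Dync1li2, Kif26b, Mtap7, Kif13a, Kif13b and Kif11. Of the 32 shorter members 0 were as low, where 3.44% of all short genes were. Other abundant long genes were low to a lesser degree: Kif1a had 549 CPM in this library against 752 to 1106 in the other females, Dctn1 493 against 795 to 891, Dync1h1 286 against 482 to 601, and Mtap4 427 against 806 to 892. In contrast Klc1, with exons of 4072 bases, was 1.37 times the mean of the other females and was the 1 of 36 long members highest in this library (2.78%, against 12.9% of all long genes).

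The spread was wider among females than among males, and less so without this library. The median coefficient of variation over the tested members was 16.9% in females, 6.91% in males and 9.37% in females 1 to 3. Without female replicate 4, 9 of 72 members had an unadjusted p under 0.05 (12.5%, against 11.4% of all genes tested in that fit), 4 of them higher in females and 5 in males, and again 0 passed adjustment, with a smallest adjusted p of 0.0855 by edgeR. Dync2h1, Klc2, Tuba1c, Mtap9 and Dynlt3 were among the 9, with Klc3, Mtap1a, Dctn6 and Dynll1. Kif5a, Kif3c, Klc1 and Tubb3, whose fitted differences were -0.26, -0.24, 0.11 and 0.03, came to 0.02, 0.01, -0.01 and -0.10 without it.

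**Figure D5:**
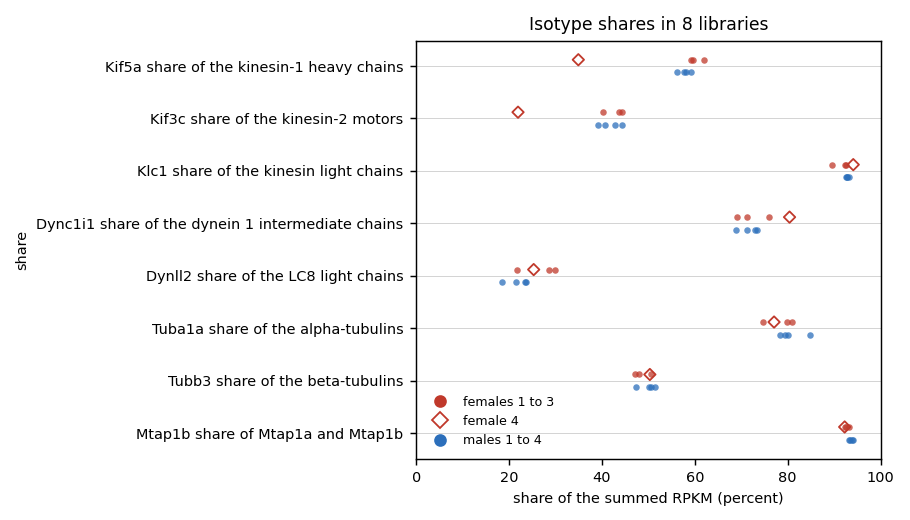
Share of 1 gene in the summed RPKM of its isotype group, in percent, for each library. Red points are females 1 to 3, open diamonds female replicate 4 and blue points males 1 to 4. Kif5a and Kif3c shares of female replicate 4 lie far left of all others, while Dync1i1 of that library is the highest of its row and the Dynll2 shares range from 18.4 to 29.9%.

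Isotype shares were given per library by RPKM, with no test. Kif5a made up 59.2, 59.5 and 62.0% of the kinesin-1 heavy chains in females 1 to 3, 34.9% in female replicate 4, and 56.2 to 59.3% in males. Kif3c made up 40.3 to 44.4% of Kif3a, Kif3b and Kif3c in females 1 to 3, 21.9% in female replicate 4 and 39.1 to 44.2% in males. Both shares were thus alike in range in all libraries but this one. Klc1 held 89.6 to 94.1% of the light chains in females and 92.6 to 93.3% in males. Dync1i1 held 69.2 to 80.4% of the dynein 1 intermediate chains in females and 68.9 to 73.4% in males. Of the LC8 light chains, which are shared between dynein and many other complexes, Dynll2 held 21.6 to 29.9% in females and 18.4 to 23.7% in males.

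Tuba1a took 74.7 to 80.8% of the alpha-tubulins in females and 78.3 to 84.8% in males, and Tubb3 took 47.2 to 50.5% of the beta-tubulins in females and 47.4 to 51.5% in males. Mtap1b held 92.3 to 93.2% of the pair Mtap1a and Mtap1b in females and 93.3 to 94.1% in males. This was the only share whose ranges did not overlap between the sexes, by a gap far smaller than either range, and it was not tested. Division by the share of unique windows gave 42.3% in females and 42.9% in males for Tubb3, and 78.5% and 80.4% for Tuba1a.

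Other microtubule genes were taken from lists of adaptors and regulators of the motors, further microtubule-binding proteins, stathmins, tubulin folding and nucleation factors, and enzymes that modify or sever tubulin. Of 96 such genes in the files, 91 were tested and 5 (5.49%) had an unadjusted p under 0.05, against 7.11% of all tested genes. Clip2, which tracks growing ends, Nav2 and the alpha-tubulin acetyltransferase Atat1 were higher in females, and the dynein adaptor Hook1 and the collapsin response protein Crmp1 in males, with 0 after edgeR's Benjamini-Hochberg adjustment. The Crmp1 p was under 0.05 in 9 of 18 alternative fits, over which its log2 fold change ran from -0.35 to -0.08. Stathmins (0 of 4) and the folding and nucleation factors (0 of 13) gave no call.

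Atat1 had 19.8, 18.4, 16.0 and 22.6 CPM in females and 13.8, 9.95, 14.9 and 13.2 CPM in males. The groups did not overlap, and the log2 fold change was 0.55 ± 0.17 (SE) with an unadjusted p of 0.00946 and an adjusted p of 0.637 by edgeR. All 18 alternative fits gave a p under 0.05, from 0.00525 to 0.0379. Hook1 had 3.16, 3.30, 2.71 and 1.35 CPM in females and 5.05, 5.05, 5.12 and 3.70 CPM in males, without overlap, and differed by -0.86 ± 0.30 (SE) on the log2 scale, the unadjusted p being 0.0152. Clip2 had 55.7, 37.7, 38.1 and 22.6 CPM in females and 22.4 to 25.0 CPM in males, with female replicate 4 among the males. Mapt, which encodes the axonal protein tau, had 431 ± 49.8 CPM in females and 394 ± 14.3 CPM in males (SD, n = 4 each). Its fitted difference was 0.11 on the log2 scale, with a 95% interval of -0.12 to 0.34.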

How the data were processed

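Per the submitters' processing notes and the study's methods, the authors aligned 50-base single reads to the mouse genome (mm9) with TopHat2 and counted them per gene with HTSeq, and deposited 1 file of raw counts per library. Versions, annotation and strand setting are not given in the sources used here. Summary lines (5 per file) were left out of all totals, and gene-assigned reads were 39.4 to 42.1% of uniquely aligned reads. No column of another sample was found (0). The deposited counts were tested with edgeR 4.0.16 in R 4.3.3: TMM factors, filterByExpr, glmQLFit and glmQLFTest with sex as the only term, over 12518 genes, with Benjamini-Hochberg adjustment. DESeq2 1.42.0 and limma 3.58.1 (voom) served as alternatives, beside other scalings, filters, corrections for exon length and GC content (lowess span 0.3 over genes), a glial marker score as covariate, a replicate block and each library left out. The fit was tested on simulated data.

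Exon lengths, unique windows and sequences came from build NCBIM37 with GENCODE M1, in which 952 of 22609 symbols had no match. Windows lay inside exons, and none across a splice junction was considered. RPKM is CPM per kilobase of merged exon. Libraries of 4800071 to 7329597 gene reads give a 3-read floor of 0.409 to 0.625 CPM, which covers counting error only. No pair of libraries of 1 sex agreed within sampling noise, so none was treated as a copy of another. The members and lists were chosen with earlier results of these data known. Genes were named by rule: those past adjustment, the 12 with the smallest p, the 2 highest per role group, the genes of each isotype share, and the 4 other microtubule genes with the smallest p with Mapt. Other genes were named after their values were seen.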

Additional observations from a re-analysis of the deposited data

Results flagged for a closer look

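Among 130 sets of 4 libraries examined (each share and each named gene with enough reads to be tested, within 1 sex), 14 had 1 library far from the rest. Its gap to the nearest other passed the 95% critical value of Dixon's test, where chance gives about 1 in 20, or 6.5. Of these, 7 were female replicate 4. In that library Kif5a was at 390 CPM against 1282 to 1391 CPM in the other females, and its share of the kinesin-1 heavy chains was 34.9% against 59.2 to 62.0%. Kifc2 was also low in it, at 39.4 CPM against 47.7 to 48.5. Kif3a (331 CPM against 289 to 294), Dynlrb1 (462 against 342 to 351), Tuba1a (3644 against 2749 to 2800) and Tubb5 (3328 against 2540 to 2671) were high in it. In female replicate 1, Tuba1c was high, at 6.32 CPM against 4.79 to 5.05.

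The male libraries gave 6 single values far from the others. Kif26a (8.46 CPM against 5.79 to 6.06) and Dync1i2 (462 against 383 to 391) were high in male replicate 1. Mapt was low in male replicate 2, at 372 CPM against 400 to 401. Kif9 was low in male replicate 3, at 2.81 CPM against 3.25 to 3.27, and Kif22 high, at 6.27 against 3.68 to 3.99. Hook1 was low in male replicate 4, at 3.70 CPM against 5.05 to 5.12.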

How the results depend on the processing

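No member passed an adjusted p of 0.05 in any of 18 alternative fits. The 5 members with an unadjusted p under 0.05 became 3 by library size alone, 3 with the length and GC correction, 1 with the glial score as covariate (Mtap7d2) and 2 to 9 when 1 library was left out: 9 without female replicate 4, 2 without female replicate 3, male replicate 1 or male replicate 3, and 3 without male replicate 4. The 5 other microtubule genes became 2 with the glial score and 3 to 10 with 1 library left out, 10 without female replicate 4 and 3 without female replicate 3 or male replicate 4. The median log2 fold change of -0.06 became 0.0020 without a filter, -0.016 with the length correction, 0.021 with the glial score and -0.054 to -0.00086 with 1 library left out, the latter without female replicate 4. Same-numbered libraries come from different mice and their deviations had correlations of 0.0939, -0.109, 0.144 and 0.00476. Whether they were prepared together is not stated, and these values cannot settle it. A replicate block gave 3 members.

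Directions reversed for several genes whose fold change is given, among them Dync2li1 (-0.09), which came to 0.017 without female replicate 2 and 0.0088 without male replicate 3. Tuba1a, at -0.01, came to 0.014 by library size alone, 0.093 with the glial score and between -0.11 and 0.044 with 1 library left out. Tubb3, at 0.03, came to -0.036 with the length correction, -0.12 with length and GC, -0.044 with the glial score and between -0.10 and 0.089 with 1 library left out. Mtap1b, at -0.08, came to 0.043 with the length correction and 0.013 with length and GC. With 1 library left out, Kif5a ranged from -0.38 to 0.025, Kif3c from -0.39 to 0.011 and Klc1 from -0.012 to 0.19, each reversing without female replicate 4. Of 33 other named genes, 27 changed direction in at least 1 of their fits (61 of 594 fits), among them Kif21b, from 0.32 to -0.46 with the glial score.

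Shares moved by more than their spread with CPM in place of RPKM for Kif5a (55.9% in males), Kif3c (46.0% in males), Klc1 (94.8% in males), Dync1i1 (51.1% in females, 47.6% in males), Tuba1a (74.8% and 77.7%) and Tubb3 (43.1% and 44.0%). Division by unique windows, chosen after seeing the data, moved Kif5a (54.8% in males), Kif3c (45.0% in males) and Tubb3 (42.3% in females, 42.9% in males). Members under about 1 CPM cannot be compared at this depth, and isotypes that share most windows cannot be ranked from these counts.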
